A study of Mus musculus with 24 samples.

Results

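MiR-26a and miR-26b (probes mmu-miR-26a and mmu-miR-26b) are the mature main strands of the miR-26 family, and they are 2 of the 558 mouse miRNA probes on the arrays of this study. The pair was picked by exact probe name, with its log2 intensity and detection p-value in all 12 groups in view. Levels and changes of the pair below are therefore a description, given with errors but without p-values. The study used 3 lines of mouse mammary carcinoma: by their labels, 67NR is nonmetastatic, 4TO7 is systemically invasive and 4T1 is highly metastatic. All cells spent 6 days in 3-dimensional organotypic culture, in a microenvironment that was either compliant or rigid. They received either TGF-beta or a drug that blocks its type I receptor, called the inhibitor here and basal in the labels. The 12 groups are thus 67NR, 4TO7 and 4T1 cells, each compliant or rigid and each with TGF-beta or inhibitor, with 2 arrays a group called set 1 and set 2.

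No group went without both agents, so each TGF-beta effect is relative to the inhibitor, and what either agent did alone cannot be told apart. The 3 lines are sister lines of 1 mouse tumour, so a difference between them is one between lines and not between classes of tumour. The labels do not say whether the sets came from separate cultures, and errors then measure only the spread between these arrays. The RNA came from whole cultures, in which fewer cells of a kind and less miRNA per cell cannot be told apart.

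A miRNA guides the Argonaute protein to messenger RNAs that pair with its seed, the bases at positions 2 to 8, and lowers their stability and translation. MiR-26 miRNAs are known repressors of the chromatin methyltransferase Ezh2, and their genes lie in introns of genes for CTD small phosphatases. In other tissues the transcription factor Myc is reported to repress miR-26, together with let-7, miR-30, miR-29 and miR-15 family members.

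The mature sequences are shown because the pair differs outside the seed only. They are from RefSeq (GRCm38.p6), are written 5′ to 3′, and carry the seed in capitals.
miR-26a: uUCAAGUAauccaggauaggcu
miR-26b: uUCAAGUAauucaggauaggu
MiR-26a has 22 bases and miR-26b 21. Counted from the 5′ end, they differ by the substitutions C11U and C21U (miR-26a first), which leaves 90.5% identity over 21 bases. Among 1679 mature mouse names in the RefSeq table, the seed UCAAGUA occurred in 2, the pair itself. Whether RNA of one member adds to the signal of the other member's probe was not tested.

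MiR-26a comes from a pair of genes and miR-26b from 1, and the hairpins are shown because a level of miR-26a is the sum over both of its genes. The mature strand is in capitals.
Mir26a-1: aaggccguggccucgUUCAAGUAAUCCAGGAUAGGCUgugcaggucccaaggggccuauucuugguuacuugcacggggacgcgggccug
Mir26a-2: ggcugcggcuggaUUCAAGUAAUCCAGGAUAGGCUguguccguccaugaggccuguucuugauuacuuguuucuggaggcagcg
Mir26b: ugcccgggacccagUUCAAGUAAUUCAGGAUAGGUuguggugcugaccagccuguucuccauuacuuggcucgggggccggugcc
The Mir26a-1 hairpin lies within Ctdspl, with the mature strand at chr9:119031811-119031832 on the plus strand. The Mir26a-2 hairpin lies within Ctdsp2, with the mature strand at chr10:126995543-126995564 on the plus strand. The Mir26b hairpin lies within Ctdsp1, with the mature strand at chr1:74394324-74394344 on the plus strand. The arrays read the mature strand, and the shares of Mir26a-1 and Mir26a-2 in the miR-26a signal cannot be told apart.

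Between 313 and 357 of the 558 miRNA probes were detected on each array (detection p under 0.05), and 365 probes were tested. Within a group the arrays correlated across probes at r = 0.995 to 0.999, and they lay on 5 slides, numbered here. Intensity is a ratio of the sample dye to a reference dye, and the log2 values below were quantile normalized. Precision is limited by having 2 arrays a group.

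Both members were detected on 24 of 24 arrays. The deposited relative intensity of miR-26a ran from 413 to 1289 (median 685), with a percent error of 2.73 to 9.16 per array. That of miR-26b ran from 427 to 1154 (median 704), with a percent error of 3.87 to 14.2. The pair was thus well above background on each array, with a highest detection p of 7.9e-14 for miR-26b. The passenger strand miR-26b* was the one star probe of the family on the arrays. It was detected on 0 of 24 arrays (detection p 0.118 to 0.219, relative intensity 98.3 to 154) and was not tested.

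The level of miR-26a was lower with TGF-beta than with the inhibitor in all 3 lines and in both microenvironments. Over all lines the difference was −0.40 ± 0.03 (log2, SE, n = 12 against 12 arrays), a 1.32-fold lower level. In 67NR cells on compliant culture, miR-26a read 9.08 and 9.05 (normalized log2, sets 1 and 2) with the inhibitor and 8.82 and 8.89 with TGF-beta. On rigid culture it read 9.06 and 8.88 with the inhibitor and 8.86 and 8.66 with TGF-beta. The TGF-beta arrays were lower within each microenvironment, but over both microenvironments the 4 arrays of either treatment overlapped in 67NR.

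In 4TO7 cells the fall of miR-26a was 1.51-fold. On compliant culture the values were 9.87 and 9.98 with the inhibitor and 9.42 and 9.43 with TGF-beta. On rigid culture they were 9.96 and 9.87 with the inhibitor and 9.15 and 9.32 with TGF-beta. All 4 TGF-beta arrays lay below all 4 inhibitor arrays.

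In 4T1 cells it was 1.33-fold. The compliant arrays gave 9.88 and 9.96 with the inhibitor and 9.51 and 9.38 with TGF-beta. The rigid arrays gave 9.72 and 9.62 with the inhibitor and 9.30 and 9.34 with TGF-beta. Again the arrays of the treatments did not overlap.

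MiR-26b was also lower with TGF-beta in each line, by less: over all lines the difference was −0.20 ± 0.03, or 1.15-fold. In 67NR cells, miR-26b read 9.17 and 9.10 with the inhibitor and 8.95 and 8.91 with TGF-beta on compliant culture. On rigid culture it read 9.02 and 8.89 with the inhibitor and 8.89 and 8.74 with TGF-beta. The rigid arrays of the treatments met at 8.89, so that they were not apart.

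In 4TO7 cells, miR-26b stood at 9.58 on both inhibitor arrays of compliant culture, where it had the same rank after normalization, and at 9.26 and 9.37 with TGF-beta. On rigid culture it stood at 9.56 and 9.55 with the inhibitor and at 9.36 and 9.37 with TGF-beta. In 4T1 cells the compliant arrays gave 9.72 and 9.74 with the inhibitor and 9.56 and 9.50 with TGF-beta. The rigid arrays gave 9.77 and 9.69 with the inhibitor and 9.42 and 9.60 with TGF-beta. In 4TO7 and in 4T1 cells the arrays of the treatments did not overlap.

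**Figure D1:**
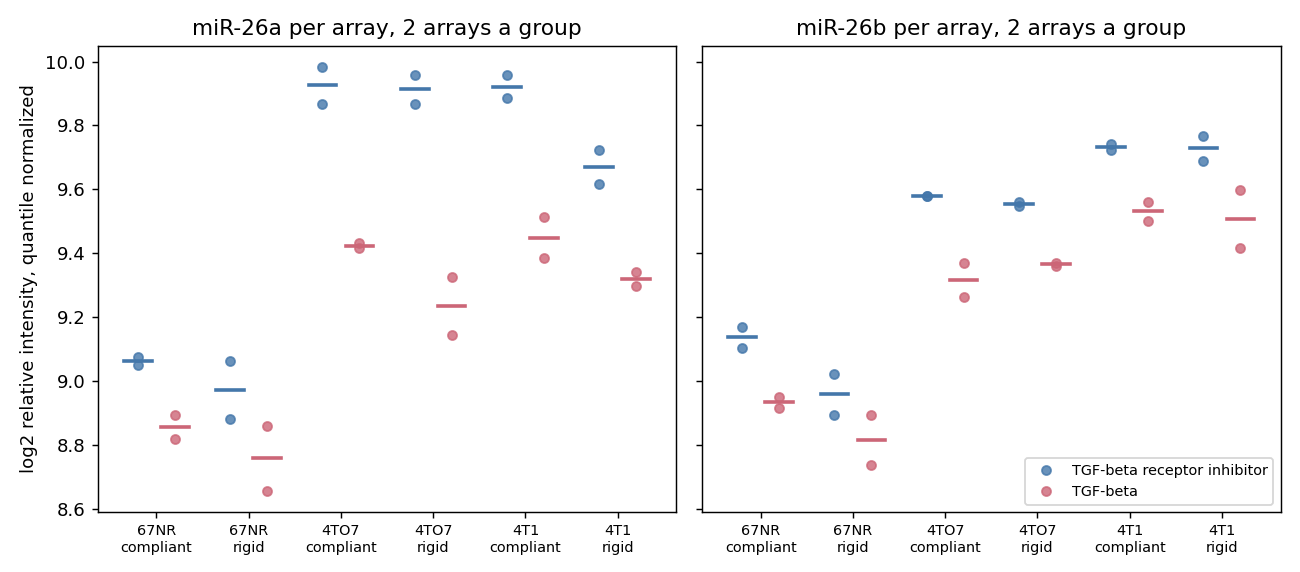
Normalized log2 intensity (y axis) of miR-26a and miR-26b on each array, by line, microenvironment and treatment (x axis). Points are arrays and bars are means of 2 arrays. TGF-beta arrays sit below the inhibitor arrays of their own line and microenvironment for miR-26a, from 8.66 in 67NR to 9.51 in 4T1, while for miR-26b the rigid 67NR arrays meet at 8.89.

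The changes per line were −0.21 ± 0.06 in 67NR, −0.59 ± 0.06 in 4TO7 and −0.41 ± 0.06 in 4T1 for miR-26a (log2, SE, n = 4 against 4 arrays). For miR-26b they were −0.17 ± 0.05, −0.23 ± 0.05 and −0.21 ± 0.05 in the same order. At an adjusted p under 0.05 (limma, Benjamini-Hochberg over 365 probes) both members were called lower in each line and over all lines. Since the pair was picked with these values known, the calls support nothing. Of all tested probes, 18.1% were called lower and 21.4% higher over all lines. Called lower were 7.67% in 67NR, 11.8% in 4TO7 and 19.2% in 4T1, and the groups did not overlap, in that direction, for 8.22%, 9.04% and 12.1%. The median change of all tested probes over all lines was 0.01. Among the 365 probes ranked from the largest fall over all lines, miR-26a was number 8 and miR-26b number 35.

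The counts over all lines moved with the scaling of the arrays. They were 78 higher and 66 lower after quantile normalization, 43 and 84 after scaling to the median of all miRNA probes, 100 and 52 after scaling to probes detected on all arrays, and 110 and 50 in the authors' value table. Both members were lower and called under each of these. In 67NR the same 4 scalings gave 12 higher and 28 lower, 5 and 41, 16 and 22, and 35 and 26. In 4TO7 they gave 35 and 43, 27 and 53, 34 and 39, and 45 and 35, and in 4T1 46 and 70, 40 and 75, 80 and 54, and 77 and 55. The balance of rises and falls over all probes thus depended on the scaling in each line, and both members were lower in each line under all 4.

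Within the 6 pairings of line and microenvironment, the fall of miR-26a was −0.21 compliant and −0.21 rigid in 67NR, −0.50 and −0.68 in 4TO7, and −0.47 and −0.35 in 4T1. For miR-26b it was −0.20 and −0.14, −0.26 and −0.19, and −0.20 and −0.22. The TGF-beta arrays lay wholly below the inhibitor arrays in 6 of 6 pairings for miR-26a and in 5 of 6 for miR-26b. The share of all probes apart in at least 5 pairings was not counted, so the miR-26b count cannot be set against one. Of all tested probes, 4.66% (17) were lower without overlap in all 6 pairings. Besides miR-26a these included let-7c, miR-30a, miR-30b, miR-30c, miR-99a, miR-100 and miR-125b-5p, grouped here after their values were seen. They were put together because each is on the list, used below, of miRNAs reported as repressed by Myc. Their place on the list was thus set by the grouping and is no finding. The list was itself chosen with earlier results of these data known, and its share among these probes was not tested. The remaining probes are not on that list, namely miR-484, miR-365, miR-222, miR-31*, miR-221, miR-130b, miR-210, miR-193b and miR-193.

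Some pairs of treatments shared a slide. Within a slide, TGF-beta minus inhibitor was −0.26 (67NR compliant, slide 1), −0.55 (4TO7 compliant, slide 2), −0.41 (67NR rigid, slide 4) and −0.59 (4TO7 rigid, slide 4) for miR-26a. For miR-26b it was −0.22, −0.21, −0.29 and −0.18 in the same order. Each value sets 1 TGF-beta array against 1 inhibitor array (2 for 4TO7 rigid), so it has no spread of its own. The rigid 67NR arrays outside slide 4 read 8.88 (inhibitor set 2) and 8.86 (TGF-beta set 1) for miR-26a. The falls were present in these pairs of 67NR and 4TO7 arrays, and no slide held both treatments of 4T1 in 1 microenvironment. With slide as a fixed block in the fit, the miR-26b change in 4T1 was −0.10 and no longer passed the threshold. Scaling to the median of all miRNA probes gave −0.38 for miR-26b in 4TO7, against −0.23 above. The calls of both members in 67NR were lost under scaling to the probes detected on all arrays, at −0.22 and −0.17. Leaving out any 1 of 6 of the 24 arrays ended the miR-26a call there, namely either compliant inhibitor array, either compliant TGF-beta array, rigid inhibitor set 1 or rigid TGF-beta set 2 of 67NR. For miR-26b the same arrays except compliant inhibitor set 2 did so. With each array left out in turn, the 67NR change ran from −0.26 to −0.16 for miR-26a and from −0.21 to −0.13 for miR-26b.

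**Figure D2:**
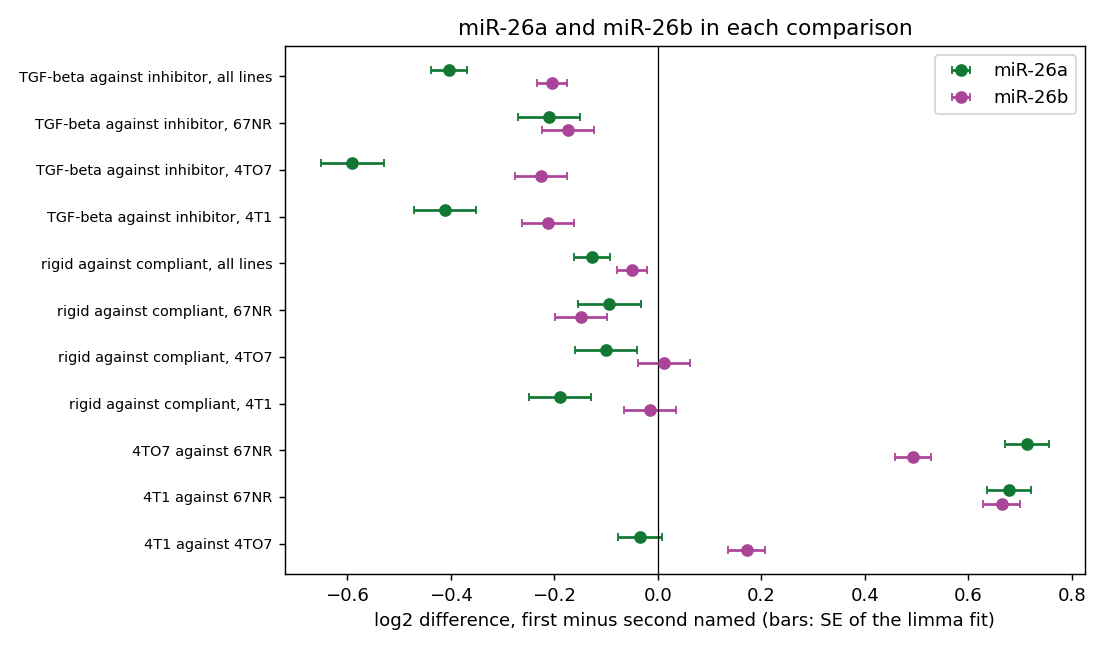
Difference in log2 intensity (x axis) of miR-26a and miR-26b for each comparison (y axis), as the first named minus the second, with bars of 1 SE from limma. For TGF-beta the miR-26a points spread from −0.21 in 67NR to −0.59 in 4TO7, while those of miR-26b lie between −0.17 and −0.23.

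The size of the TGF-beta change of miR-26a differed between the lines in the description above: 4TO7 minus 67NR was −0.38 ± 0.08, 4T1 minus 67NR −0.20 ± 0.08 and 4T1 minus 4TO7 0.18 ± 0.08. For miR-26b these differences were −0.05, −0.04 and 0.01, each ± 0.07. The limma F test of the difference between lines called 14.5% of all tested probes, miR-26a among them and miR-26b not. The miR-26a call was lost under both median scalings and with slide as a fixed block. The change with TGF-beta on rigid minus that on compliant culture was −0.02 ± 0.07 for miR-26a (95% interval −0.17 to 0.13) and 0.04 ± 0.06 for miR-26b (−0.09 to 0.16), and neither was a call. The share of all probes called in this comparison is not given, and of the 25 tested miRNAs of the Myc list 0 were called. For miR-26a the mean joins opposite directions: the fall was larger on rigid culture in 4TO7 (−0.68 against −0.50) and smaller in 4T1 (−0.35 against −0.47).

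The changes of the members were also set against each other within each array, as the log2 ratio of the deposited intensities of miR-26a and miR-26b. Any scaling of an array cancels in this ratio. Its own level has no meaning, because the probes are different, and only its differences between groups are compared. In 4TO7 it ran from 0.16 to 0.30 with the inhibitor and from −0.16 to 0.17 with TGF-beta (4 arrays each). In 4T1 it ran from −0.07 to 0.16 with the inhibitor and from −0.23 to −0.06 with TGF-beta. In both lines the ratio tended lower with TGF-beta, with overlapping ranges in each. In 67NR it ran from −0.06 to 0.03 and from −0.14 to −0.03, and the ranges overlapped.

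The ratio changed with TGF-beta by −0.22 ± 0.04 in 4TO7 (95% interval −0.30 to −0.13), by −0.17 ± 0.04 in 4T1 (−0.26 to −0.09) and by −0.05 ± 0.04 in 67NR (−0.13 to 0.04). The ratio is made of the values by which the pair was picked, so these intervals describe the spread of the arrays and are no test of an unequal fall. After quantile normalization the 4TO7 value was −0.36 ± 0.05, over 1.5 times as large, and those of 4T1 and 67NR were −0.20 ± 0.05 and −0.04 ± 0.05. Between lines, the ratio was higher in 4TO7 than in 67NR by 0.16 ± 0.03 and lower in 4T1 than in 4TO7, at −0.15 ± 0.03. With rigid culture it changed by −0.12 ± 0.04 in 4TO7, −0.16 ± 0.04 in 4T1 and 0.06 ± 0.04 in 67NR.

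**Figure D3:**
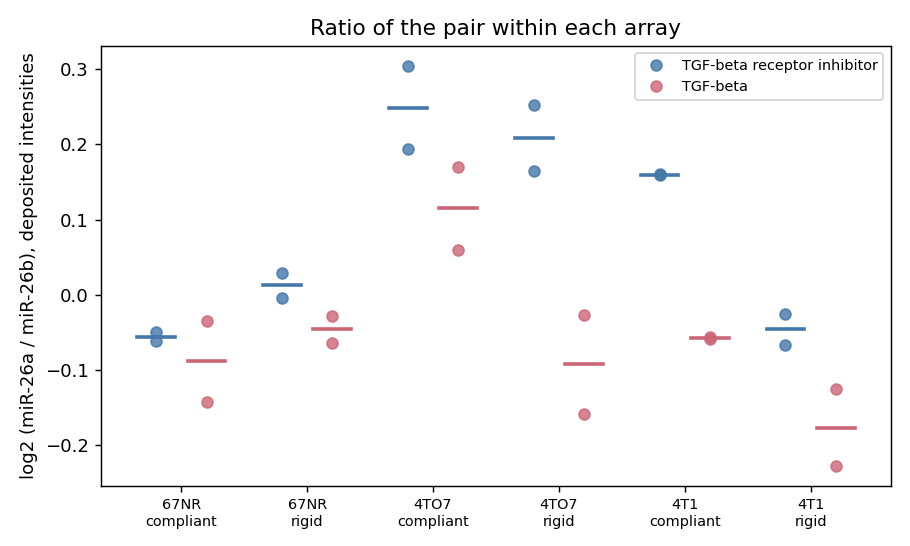
Log2 ratio of the deposited intensities of miR-26a and miR-26b within each array (y axis), by line, microenvironment and treatment (x axis). Points are arrays and bars are means of 2 arrays. The 4TO7 inhibitor arrays run from 0.16 to 0.30, with a 4TO7 TGF-beta array at 0.17 among them, and the lowest array is rigid 4T1 with TGF-beta at −0.23.

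Rigid culture was accompanied by a small difference in miR-26a and none past the threshold in miR-26b. Over all lines, rigid minus compliant was −0.13 ± 0.03 for miR-26a, a call, and −0.05 ± 0.03 for miR-26b, no call, where 11.2% of all tested probes were called lower and 21.9% in either direction. The counts were 39 higher and 41 lower, against 20 and 45 after scaling to detected probes. The miR-26a call was lost with slide as a fixed block (−0.14). Per line, miR-26a differed by −0.09 ± 0.06 in 67NR, −0.10 ± 0.06 in 4TO7 and −0.19 ± 0.06 in 4T1. MiR-26b differed by −0.15 ± 0.05 in 67NR, by −0.01 ± 0.05 in 4T1 and by 0.01 ± 0.05 in 4TO7, where the sign turned under the other scalings (−0.013, −0.056 and −0.0044). Over both treatments, the rigid and compliant arrays overlapped in each line for both members. By treatment (inhibitor, then TGF-beta), miR-26a differed by −0.09 and −0.10 in 67NR, −0.01 and −0.19 in 4TO7, and −0.25 and −0.13 in 4T1. The miR-26b values were −0.18 and −0.12, −0.02 and 0.05, and −0.005 and −0.02 in the same order.

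None of the 6 values per line over both treatments was a call, where 11%, 2.74% and 7.4% of all tested probes were called in 67NR, 4TO7 and 4T1. Only without rigid TGF-beta set 1 of 67NR was the miR-26b value there a call, at −0.19. Within a slide, rigid minus compliant was −0.27 for miR-26a in 4T1 with inhibitor (slide 2), −0.15 in 4T1 with TGF-beta (slide 3) and −0.09 in 4TO7 with TGF-beta (slide 4). For miR-26b it was −0.03, −0.11 and 0.11. Each of these values sets 1 rigid array against 1 or 2 compliant arrays.

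The largest differences of the pair were between lines. Both members were lower in 67NR than in 4TO7 and 4T1, on each of the 8 arrays of 67NR against each of the other lines' arrays. MiR-26a ran from 8.66 to 9.08 in 67NR (median 8.89), from 9.15 to 9.98 in 4TO7 (median 9.65) and from 9.30 to 9.96 in 4T1 (median 9.56). MiR-26b ran from 8.74 to 9.17 in 67NR (median 8.93), from 9.26 to 9.58 in 4TO7 (median 9.46) and from 9.42 to 9.77 in 4T1 (median 9.64).

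The 4TO7 level of miR-26a was above that of 67NR by 0.71 ± 0.04 (1.64-fold) and that of miR-26b by 0.49 ± 0.04 (1.41-fold), with 8 against 8 arrays. The 4T1 level was above that of 67NR by 0.68 ± 0.04 (1.60-fold) for miR-26a and by 0.66 ± 0.04 (1.58-fold) for miR-26b. All 4 differences were calls, where 29.9% of all tested probes were called higher in 4TO7 and 30.7% in 4T1, and 86.8% and 89.6% in either direction. The groups did not overlap, in that direction, for 18.4% and 23% of probes. Most probes thus differed between lines, with medians over all probes of −0.15 (4TO7 against 67NR) and −0.22 (4T1 against 67NR). Between 4T1 and 4TO7, miR-26b was higher in 4T1 by 0.17 ± 0.04, a call where 23% of probes were called higher, with overlapping arrays. MiR-26a differed by −0.03 ± 0.04, no call (95% interval −0.13 to 0.06), and its sign turned in the authors' table and with slide or set as a block. Between 4T1 and 4TO7, 230 of the 365 tested probes were called, 84 higher and 146 lower.

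Within a slide, 4TO7 minus 67NR was 0.85, 0.67 and 0.82 for miR-26a (slide 4 rigid inhibitor, slide 4 rigid TGF-beta, slide 5 compliant inhibitor) and 0.53, 0.63 and 0.48 for miR-26b. The value of 4T1 minus 67NR was 0.88 and 0.55 for miR-26a (slide 1 compliant inhibitor, slide 3 compliant TGF-beta) and 0.57 and 0.62 for miR-26b. For 4T1 minus 4TO7 the values were 0.20 and −0.10 for miR-26a (slide 1 rigid TGF-beta, slide 2 compliant inhibitor) and 0.24 and 0.14 for miR-26b. The higher levels of 4TO7 and 4T1 over 67NR were thus present within slides, each time as 1 or 2 arrays against 1.

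Cell type markers differed between the lines too. Of 6 epithelial miRNA probes, 5 were detected on all 4T1 arrays (miR-200a, miR-200b, miR-200c, miR-141 and miR-429), with a summed normalized intensity of 1564 to 1817. In 67NR, miR-200a and miR-141 were detected on at least some arrays, 1 of them on all, and the sum was 384 to 411. In 4TO7 those and miR-205 were detected on at least some arrays, 1 of them on all, and the sum was 412 to 564. Sums here and below take in the listed probes on the arrays whether detected or not. Of 4 mesenchymal probes on the arrays, 67NR had 4 detected (sum 11845 to 14199), and 4TO7 and 4T1 had 3 (sums 8803 to 9540 and 6943 to 8764), with miR-143 not detected. The labels call the cells breast carcinoma, and miR-200b, miR-200c and miR-429 were not detected in 67NR or 4TO7.

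Of the blood markers, 1 of 5 was detected, miR-451, on all arrays, and the defining miR-142-3p, miR-142-5p, miR-223 and miR-150 were not. Of the endothelial markers 0 of 2 were detected. Of 2 muscle probes on the arrays, miR-206 was detected in 67NR alone, and miR-122, 1 of 2 neural and liver markers, was detected on all arrays. The part of these markers in the line differences of miR-26 was not tested.

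In the order of the 12 groups, the 4 groups of 67NR came lowest for both members, and above them the TGF-beta groups of 4TO7 and 4T1 came below the inhibitor groups. For miR-26a the lowest were the 67NR groups, at 8.76 ± 0.14 (SD, n = 2 here and below) rigid with TGF-beta, 8.86 ± 0.05 compliant with TGF-beta, 8.97 ± 0.13 rigid with inhibitor and 9.06 ± 0.02 compliant with inhibitor. Neighbours among these did not differ beyond their spread. Next, and apart from them, came 4TO7 rigid with TGF-beta at 9.24 ± 0.13 and 4T1 rigid with TGF-beta at 9.32 ± 0.03, which were not apart from each other. The compliant TGF-beta groups followed, 4TO7 at 9.42 ± 0.01 and 4T1 at 9.45 ± 0.09, then 4T1 rigid with inhibitor, alone at 9.67 ± 0.07. The highest were 4TO7 rigid with inhibitor at 9.91 ± 0.06, 4T1 compliant with inhibitor at 9.92 ± 0.05 and 4TO7 compliant with inhibitor at 9.93 ± 0.08, which were not apart.

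For miR-26b the 67NR groups again came lowest, from 8.81 ± 0.11 (rigid with TGF-beta) over 8.93 ± 0.03 and 8.96 ± 0.09, which were not apart, to 9.14 ± 0.05 (compliant with inhibitor). The 4TO7 TGF-beta groups came next, at 9.32 ± 0.08 compliant and 9.36 ± 0.01 rigid, not apart from each other. Then came 4T1 with TGF-beta, rigid at 9.51 ± 0.13 and compliant at 9.53 ± 0.04, and 4TO7 rigid with inhibitor at 9.55 ± 0.01, in which neighbours were not apart. The 4TO7 compliant inhibitor group followed at 9.58, and the 4T1 inhibitor groups were highest, both at 9.73, and not apart. Unlike for miR-26a, each 4T1 group was above the 4TO7 group of the same microenvironment and treatment.

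MiRNAs with a pattern most like miR-26a over the 24 arrays were miR-324-5p (Pearson r = 0.973), miR-99a (0.970), miR-30b (0.953), let-7c (0.949) and miR-30c (0.935). Most like miR-26b were let-7e (0.970), let-7a (0.960), miR-15a (0.959), let-7f (0.954) and miR-301a (0.944). The points share arrays and normalization, the lines set much of the spread, and the values are a description. The pair itself had r = 0.908, which made miR-26b the miRNA in place 7 for miR-26a, and miR-26a the one in place 30 for miR-26b. The least like miR-26a were miR-671-5p (−0.926), a probe shared by miR-465a-3p, miR-465b-3p and miR-465c-3p (−0.909) and miR-681 (−0.907). The least like miR-26b were miR-683 (−0.955), miR-673-3p (−0.948) and miR-199a-5p (−0.946), one of the mesenchymal markers. The median r over all tested probes was −0.50 for miR-26a and −0.60 for miR-26b.

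With each line's mean subtracted, miR-324-5p (0.948) and miR-99a (0.934) stayed the most like miR-26a, followed by miR-100 (0.925), miR-450a-5p (0.922) and miR-221 (0.918). For miR-26b they became miR-100 (0.865), miR-98 (0.859), miR-221 (0.849), let-7c (0.843) and let-7e (0.840). The pair then had r = 0.843, in place 11 for miR-26a and place 5 for miR-26b.

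Sequences of the leading miRNAs are given because their likeness in level was not a likeness of seed. Of 13 array names looked up in RefSeq, 12 matched, and seeds are in capitals.
miR-324-5p: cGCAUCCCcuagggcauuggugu
miR-99a: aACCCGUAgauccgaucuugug
let-7c: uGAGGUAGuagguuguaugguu
let-7e: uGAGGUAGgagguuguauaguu
let-7a: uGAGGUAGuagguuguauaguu
let-7f: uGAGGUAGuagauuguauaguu
None of these holds the seed of miR-26. The let-7 members share a seed and differ in few bases, so that probes may read more than one of them, and their separate levels are uncertain. MiR-99a (chr16:77598940-77598961) and let-7c (its copy at chr16:77599672-77599693) are neighbours on the plus strand of the chromosome. With TGF-beta over all lines, miR-324-5p changed by −0.17, miR-99a by −0.28, miR-30b by −0.32, let-7c by −0.25 and miR-30c by −0.30 (log2). The miRNAs like miR-26b changed by −0.23 (let-7e), −0.13 (let-7a), −0.23 (miR-15a), −0.24 (let-7f) and −0.22 (miR-301a). They were chosen for likeness, so the direction is not separate evidence.

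MiRNAs reported as repressed by Myc, as miR-26 is, mostly fell with TGF-beta. Of 26 listed, 25 were tested, of which 16 were called lower, 3 higher and 6 neither over all lines (limma). That is 64% lower, where 18.1% of all tested probes were called lower. Their median change was −0.23, against 0.01 for all tested probes. Among the falls were miR-125b-5p (−0.47 ± 0.04, adjusted p = 3.8e-08 by limma), miR-100 (−0.37 ± 0.03, 5.2e-09) and miR-30a (−0.32 ± 0.03, 3.5e-08). The rises were miR-22 (0.74 ± 0.03, 2.6e-11), miR-146a (0.58 ± 0.03, 4.8e-10), which represses NF-kappaB signalling, and miR-34a (0.36 ± 0.03, 5.6e-08), a target of p53. So the members of the list did not move one way. The list was chosen with earlier results of these data known. Its shares and adjusted p-values, here and per line below, are therefore a description. Probes of its let-7 members may read more than one of them, so these do not count separately. The called falls also take in miR-30a, miR-30b, miR-30c, miR-30d and miR-30e of the miR-30 family. Whether their probes read one another was not tested. Myc itself was not measured by these miRNA arrays, and its part was not tested.

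Per line the list had 8 lower and 1 higher in 67NR, 9 and 4 in 4TO7, and 16 and 3 in 4T1, where 7.67%, 11.8% and 19.2% of all tested probes were called lower and 3.29%, 9.59% and 12.6% higher. The miRNAs let-7c, let-7e, miR-30a, miR-100 and miR-125b-5p were called lower in each line, 5 of 25, where 4.11% of all tested probes were. Between lines, 21 of 25 were higher in 4TO7 than in 67NR and 3 lower, with a median of 0.46 against −0.15 for all probes. In 4T1 against 67NR 21 were higher and 4 lower, with a median of 0.62 against −0.22. Over all probes, 29.9% were called higher and 57% lower in 4TO7, and 30.7% higher and 58.9% lower in 4T1. With rigid culture over all lines 2 were higher and 5 lower, where 10.7% of all tested probes were called higher and 11.2% lower.

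Of 5 other miRNAs reported to repress Ezh2, 3 were tested, and miR-101b fell by 0.08 ± 0.03 (limma, adjusted p = 0.016), a call lost under scaling to the detected probes, in the authors' table and with slide as a fixed block. MiR-138 and miR-214 had values of 0.05 and −0.07 and did not pass.

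**Figure D4:**
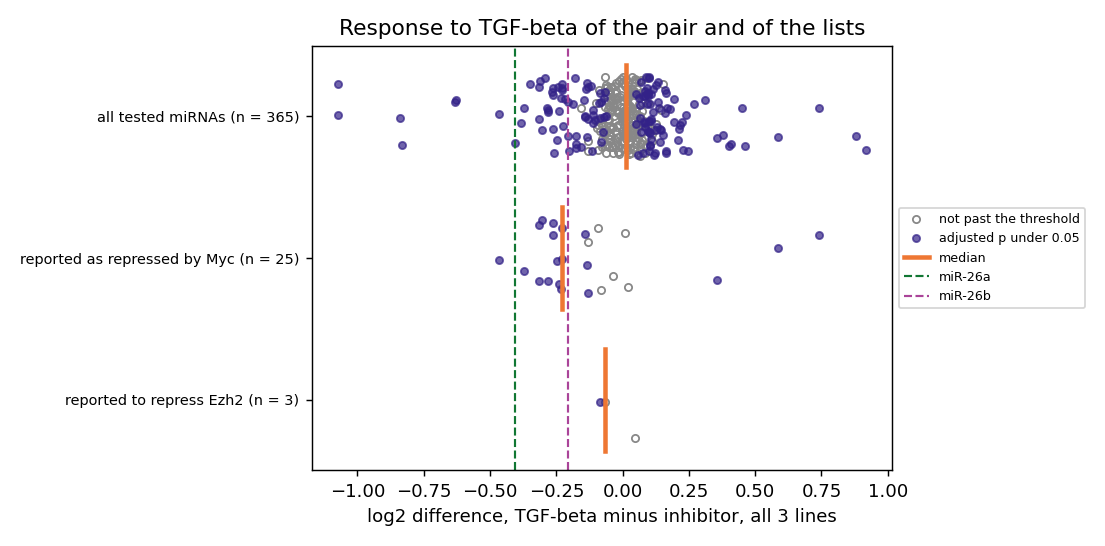
Log2 difference with TGF-beta against inhibitor over all lines (x axis) for all 365 tested miRNAs and for the tested miRNAs of the Myc and Ezh2 lists (rows). Points are miRNAs, filled at an adjusted p under 0.05, orange bars are medians, and dashed lines mark miR-26a at −0.40 and miR-26b at −0.20. The Myc list has its median at −0.23 with 3 called miRNAs above 0, and all miRNAs have theirs at 0.01.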

How the data were processed

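Per the labels and the file headers, RNA was labelled with 1 dye and hybridised beside a reference in another on a Thermo Scientific Dharmacon microRNA array of 593 probes (558 miRNA and 35 spike-in). Scanner and software are not given in the sources used here. The deposited intensity is relative (sample over reference), linear, background subtracted and corrected for labelling by the authors, and not normalized between arrays. The deposited files also give an error, a detection p-value and a fail code. A table deposited by the authors gives log2 values of 338 of these probes, shifted by 1 constant per array whose rule is unknown, and was used as an alternative.

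Log2 intensities were quantile normalized over miRNA probes. Probes detected (p under 0.05) on both arrays of at least 1 group, with the fail code on fewer than 12 arrays, were tested (365). A model of 12 group means (12 residual degrees of freedom) was fitted with limma 3.58.1 in R 4.3.3 (lmFit, eBayes with trend). Tests were two-sided, with Benjamini-Hochberg adjustment within each of 14 comparisons and a threshold of 0.05. The fit was tested on simulated data.

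Named were the pair, star strands of miR-26, the 5 most and 3 least correlated probes per member (5 most after line means were subtracted) and up to 3 rises and 3 falls per list. The lists are of miRNAs reported as repressed by Myc and of miRNAs reported to repress Ezh2; another list is not reported here. Marker lists were epithelial, mesenchymal, blood, endothelial, muscle, and neural and liver. Members and lists were chosen with earlier results of these data known. Alternatives were other scalings, the authors' table, no detection filter, slide or set as a block, array weights, fewer arrays and each array left out.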

Additional observations from a re-analysis of the deposited data

Results flagged for a closer look

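The change of miR-26a with TGF-beta differed between lines by the limma F test, with a span of 0.38 (log2) from −0.21 in 67NR to −0.59 in 4TO7. The pair was picked with these values known, so this is a description. The span was 0.30 after scaling to the median of all miRNA probes, 0.35 after scaling to detected probes and 0.36 with slide as a fixed block, and did not pass the threshold under these. With 2 arrays a group, no array could be examined as an outlier of its group.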

How the results depend on the processing

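The falls of both members over all lines and in 4TO7, that of miR-26a in 4T1, and their higher levels in 4TO7 and 4T1 than in 67NR kept direction and call under every alternative run. In 67NR, the miR-26a call was lost at −0.22 (scaling to detected probes), −0.21 (slide as a fixed block) and −0.21 (only the line's arrays). That of miR-26b was lost at −0.17 under scaling to detected probes, the authors' table, no detection filter and only the line's arrays. With slide as a fixed block, miR-26b in 4T1 (−0.10), miR-26a with rigid culture (−0.14) and the miR-26a difference between lines (0.36) lost their calls. That difference also lost it under scaling to all probes (0.30) and to detected probes (0.35). Signs turned for miR-26b with rigid culture in 4TO7 (−0.013, −0.056 and −0.0044 under scaling to all probes, to detected probes and the authors' table). They turned for its TGF-beta change by microenvironment (−0.0076, −0.014 and −0.058 under scaling to all probes, the authors' table and the slide block), and for miR-26a in 4T1 against 4TO7 (0.040 in the authors' table, 0.0056 with the slide block). The normalized ratio change in 4TO7 was −0.22 under the scalings by 1 constant per array and in the authors' table. The span of group means was 1.27 for miR-26a in the authors' table, and 0.995 (detected probes) and 1.07 (authors' table) for miR-26b. Counts of called probes were 61 for TGF-beta in 67NR in the authors' table and 63 with array weights (main 40). They were 50 for TGF-beta in 4T1, 39 for rigid culture over all lines and 12 in 4T1 with the slide block (main 116, 80 and 27), 21 for rigid culture in 4TO7 with detected probes (main 10) and 10 in 4T1 with only that line's arrays. The cause of these changes was not tested. Whether the set numbers pair the arrays is not given by the labels. Deviations of same-numbered arrays correlated from −0.33 to 0.49 over 66 pairs of groups (median 0.09, 32 over 0.1) and from −0.16 to 0.49 over the 18 pairs within a line (median 0.25, 11 over 0.1), so that not every pair was over 0.1. With set as a replicate block within each line, counts were 70 for TGF-beta in 67NR, 18 for rigid culture in 4TO7 and 81 for the difference between lines (main 53), miR-26a in 4T1 against 4TO7 was 0.0076, and no other call of the pair changed. Leaving out 1 array at a time gave −0.26 to −0.16 (miR-26a) and −0.21 to −0.13 (miR-26b) for TGF-beta in 67NR, and −0.054 to 0.014 for the miR-26a TGF-beta change by microenvironment. With rigid culture miR-26b ran from −0.060 to 0.031 in 4T1, −0.015 to 0.039 in 4TO7 and −0.19 to −0.11 in 67NR. Called probes ran from 14 to 33 for rigid culture in 4T1, 7 to 18 in 4TO7, and 14 to 38 for its difference between lines. The Ezh2 list had 1 to 2 lower. Signal over background limited miR-26b*, which was not detected, and not the pair.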
